A study of Mus musculus with 2 samples.

Results

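Natural killer (NK) cells with few or no transcripts of granzymes D to G were drawn from live CD45+ cells sorted out of MC38 tumours, a mouse colon carcinoma line grown in mice, on day 19 after inoculation. A treated library (BiDT) and a control library (Ctrl) were made, and each pooled 5 biological replicates whose cells cannot be told apart in the files. BiDT is not defined in the labels, while the study's title speaks of an interferon fused to an antibody against TIM3. The labels give no dose, mouse strain or age. Members had at least 500 UMIs (molecules counted by their unique identifier), at most 10% mitochondrial UMIs, at least 2 UMIs of Ncr1, Klrb1c and Klre1 together, no UMI of Cd3d, Cd3e, Cd3g, Cd8a, Cd8b1 or Csf1r, and at most 2 UMIs of Gzmd, Gzme, Gzmf and Gzmg together. These measured values chose the cells, so they are given below only as a description. In all, 1597 of 67031 filtered cells were members, 1203 of 34423 in the BiDT library and 394 of 32608 in the Ctrl library.

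NK cells are innate lymphocytes that kill infected and transformed cells with perforin and granzymes, and they release interferon gamma and chemokines. Receptors for MHC class I, such as the Ly49 and NKG2 families, restrain or trigger them, and maturing mouse NK cells move through stages that differ in Cd27, Itgam, Klrg1 and Ly6c2. In tumours they lie beside related innate lymphoid cells of group 1 (ILC1), which resemble tissue-resident cells and carry Itga1, Cxcr6 and Tnfsf10. Type I interferon is a strong activator of NK cytotoxicity.

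The NK gate held 3.49% of filtered cells in the BiDT library (exact binomial 95% interval 3.30% to 3.69%), against 1.21% in the Ctrl library (1.09% to 1.33%). The share was 2.89-fold higher with BiDT (2.58 to 3.25). All intervals here cover counting error only, and with 1 library per group no test between groups was possible. Shares depend on the other cells of the sort: cells with at least 2 UMIs of Csf1r and no UMI of a Cd3 gene or an NK marker, here called phagocytes, numbered 3233 in the BiDT library and 10063 in the Ctrl library. Of the cells that met every other criterion, those poor in granzymes D to G made up 53.6% in BiDT (51.5% to 55.7%) and 56.0% in Ctrl (52.2% to 59.7%). Just inside the gate, 422 BiDT and 88 Ctrl members had a marker sum of 2, and 131 BiDT and 21 Ctrl members had a granzyme sum of 2. Just outside it, 1032 BiDT and 297 Ctrl cells had a marker sum of 1, and 67 BiDT and 16 Ctrl cells had a granzyme sum of 3.

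Of the markers, Klre1 stood at 727 CPM in BiDT and 546 CPM in Ctrl members, where CPM is the gene's UMI count summed over the members and scaled to a total of 1000000 UMIs. Ncr1 stood at 125 CPM in BiDT and 180 CPM in Ctrl members, and Klrb1c at 306 CPM in BiDT and 376 CPM in Ctrl members. CD8 T cells, defined below, also had Klre1, at 355 CPM in BiDT and 262 CPM in Ctrl. Their Ncr1 level was 6.91 CPM in BiDT and 3.10 CPM in Ctrl. Klre1 was seen in 91.4% of BiDT and 82.5% of Ctrl members, Klrb1c in 53.3% and 67.5%, and Ncr1 in 31.5% and 46.4%. Whether T cells without a Cd3 UMI passed the gate was not tested. Eomes and Gzma, the markers that the gate did not use, were present in both libraries and are described below. The members had a median of 3086 UMIs in BiDT and 4114 UMIs in Ctrl, and their counts summed to 4514625 UMIs in BiDT and 1863221 UMIs in Ctrl. Malat1, a nuclear transcript, took 0.627% of these UMIs in BiDT and 0.329% in Ctrl. The libraries shared 713 cell barcodes, of which 1 was a member in both.

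The gate also held cells rich in MHC class II or macrophage transcripts. Cells in which H2-Aa, H2-Ab1, H2-Eb1 and Cd74, or Lyz2, Apoe and the C1q genes, exceeded 1% of UMIs numbered 45 of 1203 in BiDT and 40 of 394 in Ctrl. In Ctrl these cells carried the dendritic cell genes Plet1 and Wdfy4 in 45% each and Nkg7 in 37.5%, while the remaining Ctrl members carried Nkg7 in 90.4%. Of the 14 dendritic and B cell markers listed, 5 reached 50 UMIs and all 5 were lower in BiDT. Their summed level was 1430 CPM in BiDT and 6240 CPM in Ctrl members, and 3 markers in BiDT and 4 in Ctrl had no UMI. The remaining members, 1158 in BiDT and 354 in Ctrl, are called class II-poor members, and some results are given for them as well. This division was chosen after the values had been seen. The 11 T cell markers summed to 554 CPM in BiDT and 567 CPM in Ctrl members, with 4 measured, 1 higher and none lower. The 8 neutrophil markers summed to 205 CPM in BiDT and 154 CPM in Ctrl members, with 3 of 6 measured higher. All 6 were under 10% of another cell group's level in both libraries, a range that RNA from other cells could reach. The same held for 1 of the 4 measured T cell markers and 1 of the 5 measured dendritic and B cell markers. In these counts higher and lower mean at least 1.5-fold, and over all genes 11.8% were higher and 7.66% lower.

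Across all genes, differences between the libraries were led by interferon-induced genes. A gene was called higher or lower at 1.5-fold or more among 8985 genes with at least 50 UMIs over both libraries. In BiDT members 1059 genes (11.8%) were called higher and 688 genes (7.66%) lower, with a median log2 ratio of BiDT over Ctrl of 0.03. These shares are the background for the counts of gene lists below. The 12 highest ratios by the rule for named genes all belonged to interferon-induced genes. Rsad2, which encodes the antiviral enzyme viperin, led them at 222 CPM in BiDT and 10.7 CPM in Ctrl members, a log2 ratio of 4.37 (3.74 to 5.09). It was followed by Ifit1 (3.79), Cmpk2 (3.70), Ifit3 (3.60), Ifi44 (3.55), Ifi214 (3.48), Ifit2 (3.29), Oas3 (3.29), Oasl1 (3.16), Ifi213 (2.97), Usp18 (2.95) and Irf7 (2.91). Of these 12, 10 were also among the 12 highest of the class II-poor members.

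Most of the 12 lowest ratios were those of dendritic cell genes, among them Ccl17 (-3.31), Plet1 (-3.19), H2-DMb2, H2-Eb1, Cst3, H2-Aa, Mgl2 and Wdfy4. Cxcl9, Ifitm1, Fdps and Prnp made up the rest. Among class II-poor members 1037 of 8757 genes (11.8%) were higher and 595 (6.79%) lower, and the 12 lowest by the same rule included Ifitm1, Prnp, Chil3, Krt83, Tmem176a, Ccdc184, Tmem176b, Ifitm2, H2-Eb1, Xcl1 and Ramp1; 3 of the 12 were shared with the first list. Ifitm1, which encodes a membrane protein that blocks viral entry, had 79.4 CPM in BiDT and 351 CPM in Ctrl class II-poor members, a log2 ratio of -2.14 (-2.34 to -1.95). The related Ifitm2 had 175 CPM in BiDT and 535 CPM in Ctrl class II-poor members. Both were thus lower in BiDT although the family is known as interferon-induced. Cells that met the other criteria with more than 2 UMIs of granzymes D to G also had both genes lower. Their log2 ratios were -0.68 for Ifitm1 and -0.74 for Ifitm2, past the fold. In CD8 T cells of the same libraries (at least 1 UMI each of a Cd3 and a Cd8 gene and none of Csf1r) the log2 ratios were -0.13 for Ifitm1 and 0.01 for Ifitm2. Of 11515 genes in CD8 T cells, 9.37% were higher and 6.35% lower.

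**Figure D1:**
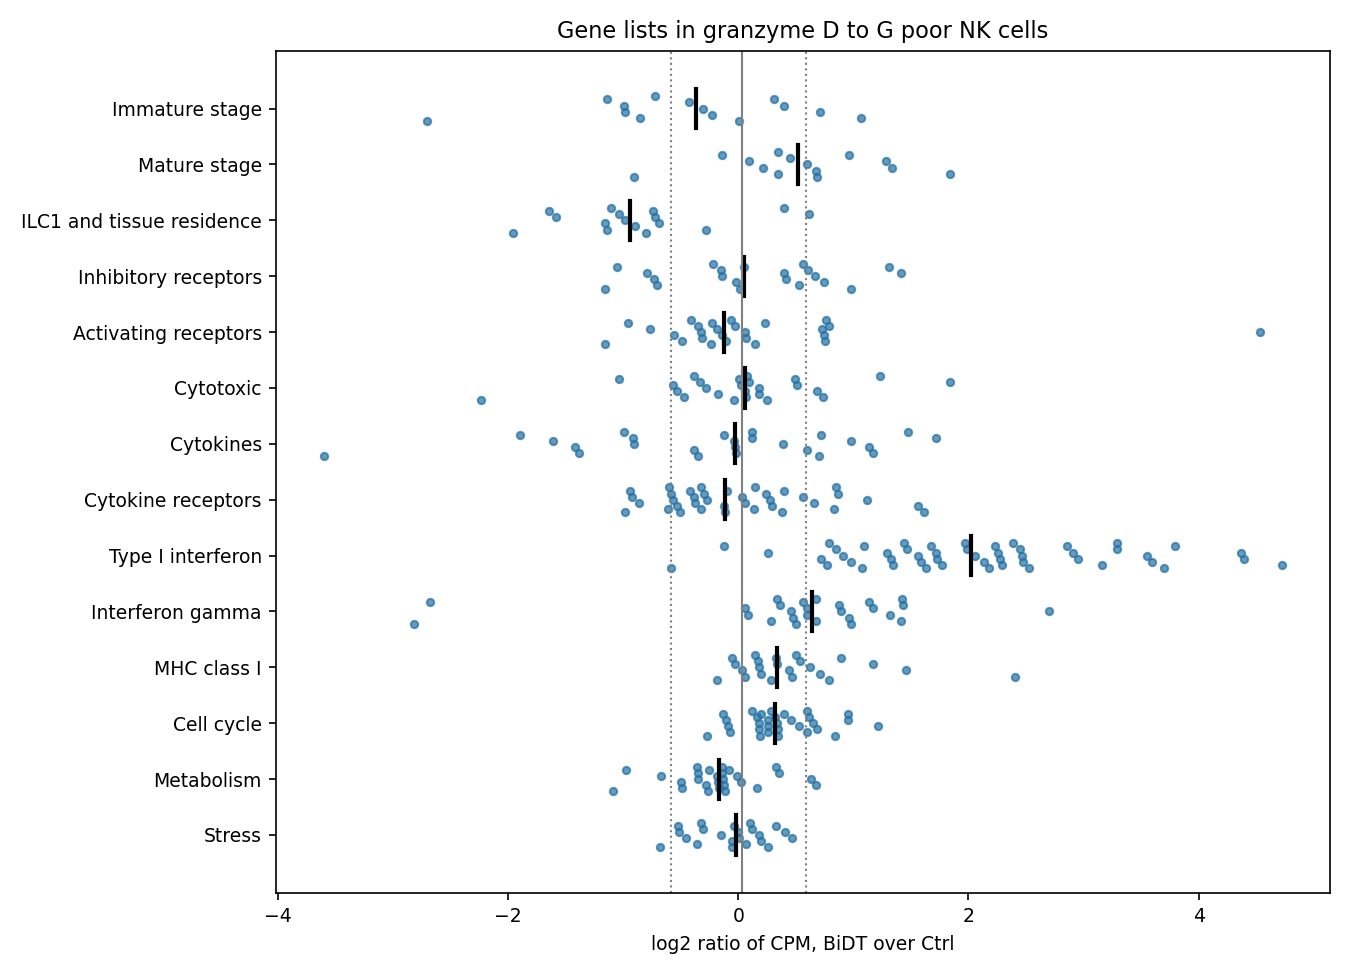
Log2 ratios of CPM, BiDT over Ctrl, of the members of 14 gene lists with at least 50 UMIs, in NK cells poor in granzymes D to G; each point is a gene, the black bar is the list's median, the solid line the median of all 8985 genes (0.03) and the dotted lines mark 1.5-fold. The type I interferon list lies far to the right, with a median of 2.02, and the ILC1 and tissue residence list to the left, with a median of -0.94.

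Transcription factors that define the lineage differed little. Of 11 measured factors, 2 were higher and 1 was lower, with a median log2 ratio of 0.14. Eomes, the T-box factor that separates NK cells from ILC1, had 207 CPM in BiDT and 129 CPM in Ctrl members, a log2 ratio of 0.68 (0.47 to 0.89). Tbx21, the other T-box factor of this lineage, had 185 CPM in BiDT and 122 CPM in Ctrl members (0.59). Rora, a factor of innate lymphoid cells, had 49.6 CPM in BiDT and 78.9 CPM in Ctrl members (-0.67). Rora was at -0.39 with a marker sum of at least 1. In class II-poor members both T-box factors were below the fold (0.54 for Eomes and 0.50 for Tbx21).

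In BiDT more genes of the mature stage were higher than lower, and more genes of the immature stage were lower than higher. Of 14 measured genes of the mature stage, 7 were higher and 1 lower, with a median of 0.52. Of 14 genes of the immature stage 2 were higher and 6 lower, with a median of -0.37. In class II-poor members 5 mature genes were higher and 1 lower, with a median of 0.42. There 2 immature genes were higher and 5 lower, with a median of -0.41. The shares over all genes were 11.8% higher and 7.66% lower. Ly6c2, a surface antigen of mature cells, had 787 CPM in BiDT and 323 CPM in Ctrl members, a log2 ratio of 1.28 (1.16 to 1.41). Prdm1, which encodes the repressor Blimp-1, had 40.5 CPM in BiDT and 16.1 CPM in Ctrl members (1.33), and Zeb2, a driver of terminal maturation, had 153 CPM in BiDT and 78.4 CPM in Ctrl members (0.96, and 0.15 with all cells thinned before the gate). Irf8, an interferon regulatory factor, had 1494 CPM in BiDT and 934 CPM in Ctrl members (0.68). Surface markers of the last stage did not share this difference: Klrg1 had 45.2 CPM in BiDT and 49.9 CPM in Ctrl members, and Itgam 72.9 CPM in BiDT and 62.8 CPM in Ctrl members. Cx3cr1 was lower, at 9.75 CPM in BiDT and 18.2 CPM in Ctrl members. The levels of the mature list were summed over all its genes at 7956 CPM in BiDT and 3906 CPM in Ctrl members, a sum to which Gzmb contributed most in BiDT.

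Among genes of the immature stage, the interleukin 7 receptor gene Il7r had 45.2 CPM in BiDT and 89.6 CPM in Ctrl members (-0.99). Cd7 had 45.2 CPM in BiDT and 99.8 CPM in Ctrl members (-1.14), and Emb, a cell adhesion gene, had 284 CPM in BiDT and 513 CPM in Ctrl members (-0.85). The other direction was taken by Cd27, a costimulatory receptor of the less mature stage, with 46.1 CPM in BiDT and 22 CPM in Ctrl members (1.07), and by Bach2, a repressor of effector genes, with 84.4 CPM in BiDT and 51.5 CPM in Ctrl members (0.71). For shares of cells, members were thinned to 1000 UMIs each, which evens their depth but not the effect of depth on the gate. A Cd27 UMI without one of Itgam was seen in 3.82% of BiDT members (2.81% to 5.07%) and in 2.03% of Ctrl members (0.88% to 3.96%). Itgam without Cd27 was seen in 6.07% of BiDT members and 6.09% of Ctrl members. Some 89.7% of BiDT and 91.4% of Ctrl members had neither, so the stages defined by these genes were not resolved at this depth.

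Genes of ILC1 and tissue residence formed the group with the lowest median apart from dendritic cell markers. Of 16 measured genes, 13 were lower and 1 was higher in BiDT members, with a median of -0.94, and the same counts with a median of -0.95 were found in class II-poor members. Cxcr6, the receptor for the membrane-bound chemokine Cxcl16, had 28.4 CPM in BiDT and 61.2 CPM in Ctrl members, a log2 ratio of -1.11 (-1.49 to -0.73). Itga1, the collagen-binding integrin CD49a, had 76.2 CPM in BiDT and 128 CPM in Ctrl members (-0.75). Ahr, the aryl hydrocarbon receptor that sustains resident lymphocytes, had 38.5 CPM in BiDT and 84.8 CPM in Ctrl members (-1.14). Itgae (-1.95), Tmem176a (-1.64), Tmem176b (-1.59), Cd200r1 (-1.16), Inpp4b (-0.90), Nt5e (-0.80), Gpr183 (-0.72) and Rgs2 (-0.69) were lower too. Entpd1, an ectonucleotidase, was the member called higher (0.61), and Cd69 (0.39) and Rgs1 (-0.28) stayed within the fold. With the gated cells thinned to 1000 UMIs, Nt5e stood at -0.05, Gpr183 at -0.56 and Entpd1 at 0.31, and with all cells thinned before the gate Gpr183 stood at -0.49, Rgs2 at -0.46 and Tnfsf10 at -0.50, all within the fold. Per cell after thinning, Itga1 or Cxcr6 without Eomes was seen in 7.23% of BiDT members (5.83% to 8.84%) and 11.9% of Ctrl members (8.90% to 15.5%). Eomes without either was seen in 180 of 1203 BiDT members (13.0% to 17.1%) and in 10.4% of Ctrl members (7.57% to 13.9%). In CD8 T cells the same list had a median of -0.25, and in NK-gated cells rich in granzymes D to G, which met the other criteria with more than 2 UMIs of those genes, a median of -0.38.

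**Figure D2:**
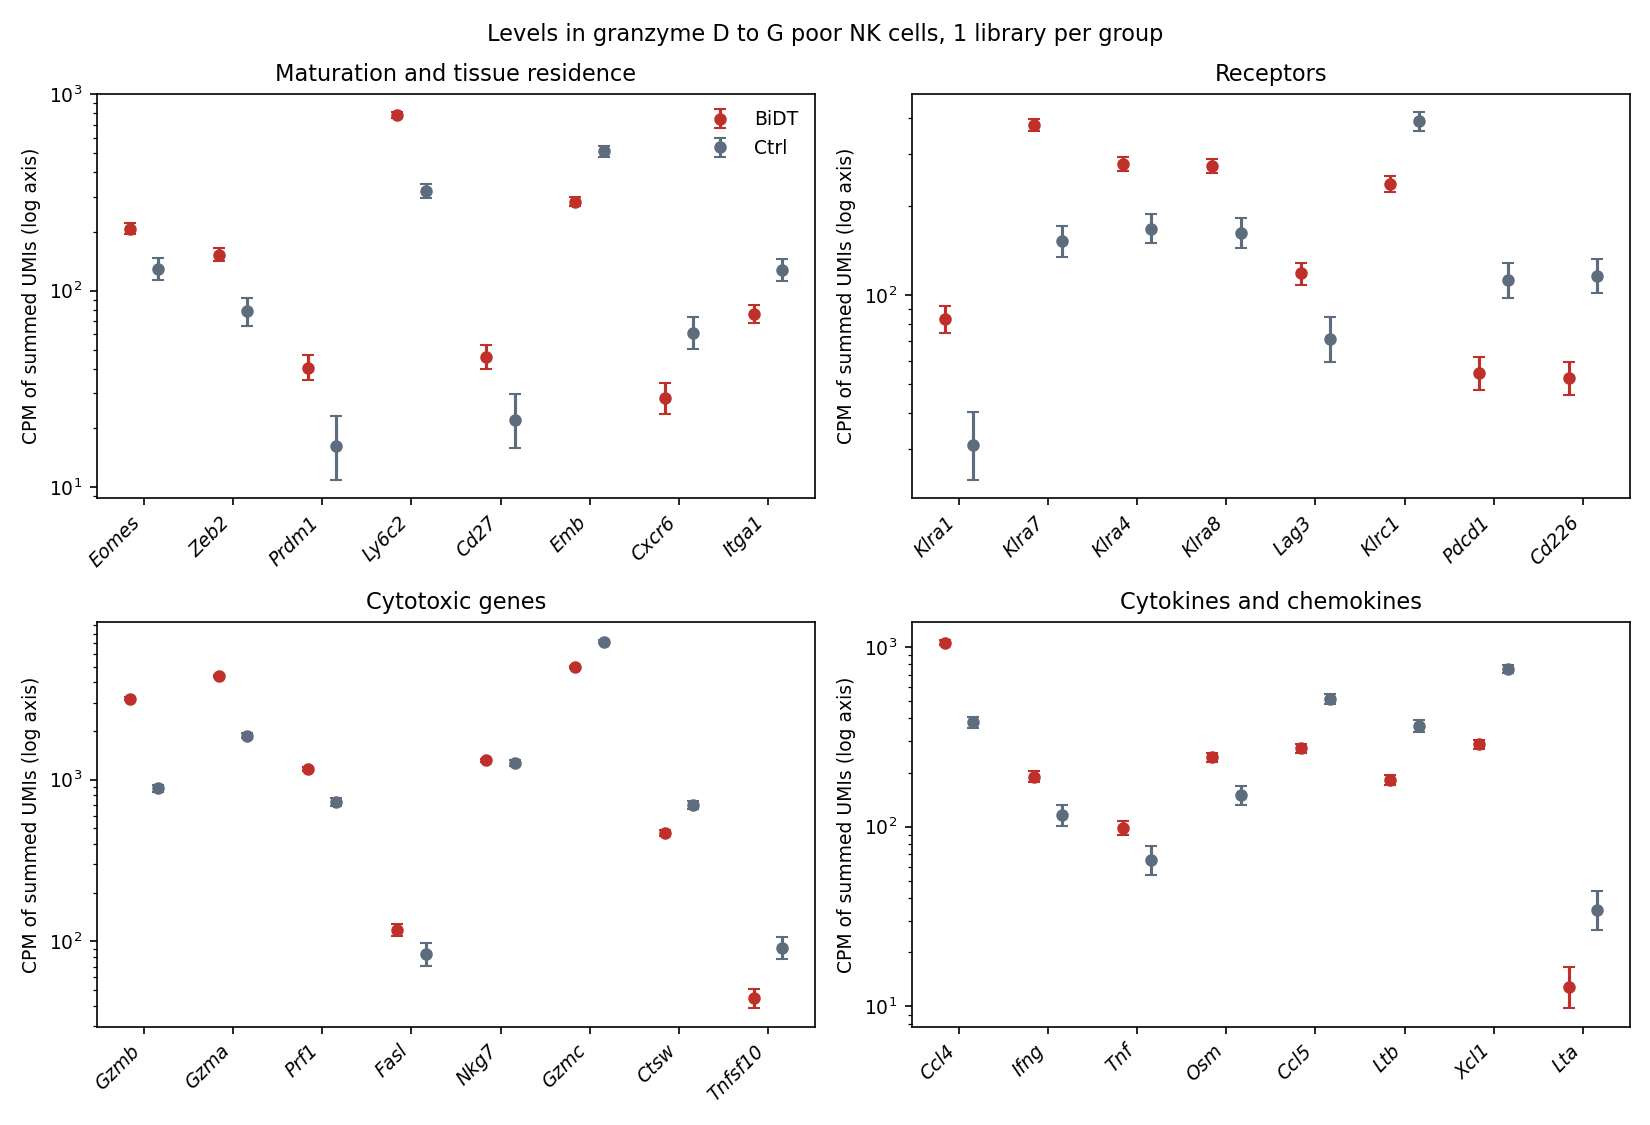
Levels of 32 genes in NK cells poor in granzymes D to G, as CPM of the summed UMIs on a log axis, with BiDT left of Ctrl; each point is 1 library and bars are exact Poisson 95% intervals. Gzmb (3173 CPM in BiDT, 886 CPM in Ctrl) and Klra1 (82.8 CPM in BiDT, 31.1 CPM in Ctrl) lie higher in BiDT, and Xcl1 (287 CPM in BiDT, 750 CPM in Ctrl) and Cxcr6 lie lower.

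Receptors did not move as a group. Of 21 measured inhibitory receptors 6 were higher and 5 lower in BiDT, with a median of 0.05. Of 26 activating receptors and adaptors 6 were higher and 3 lower, with a median of -0.12. Among all genes 11.8% were higher and 7.66% lower. In class II-poor members 4 of the activating list were higher and 4 lower, where 11.8% of genes were higher and 6.79% lower. Among the Ly49 genes, lectin-like receptors for MHC class I, Klra7 had 377 CPM in BiDT and 152 CPM in Ctrl members, a log2 ratio of 1.31 (1.13 to 1.49). Klra1 had 82.8 CPM in BiDT and 31.1 CPM in Ctrl members (1.41), and Klra4 and Klra8, whose products activate, had 279 and 274 CPM in BiDT and 168 and 163 CPM in Ctrl members (0.73 and 0.75). Klra2 (0.98), Klra3 (0.60), Klra9 (0.56) and Klra5 (0.01) completed the measured Ly49 genes, none of which was called lower. In class II-poor members Klra3 (0.46) and Klra4 (0.55) were below the fold. With all cells thinned before the gate, Klra7 stood at 1.51 and Klra1 at 0.88, but Klra8 at 0.02 and Klra4 at -0.41, the opposite direction. These genes are near-identical copies, and no source used here states how shared reads were counted, so their division among members is uncertain.

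The share of cells with any Ly49 transcript does not depend on that division, but it does depend on whether shared reads were counted at all, which is not known. After thinning to 1000 UMIs, 50.8% of BiDT members (47.9% to 53.7%) and 33.0% of Ctrl members (28.4% to 37.9%) had a UMI of at least 1 Ly49 gene. At least 3 Ly49 genes were seen in 7.48% of BiDT members (6.06% to 9.12%) and 3.05% of Ctrl members (1.58% to 5.26%), a count that does depend on the division of reads among copies. In phagocytes, Klra7 alone was seen in 0.402% of BiDT and 0.0696% of Ctrl cells. Phagocytes were chosen without an NK marker UMI, so this is no background share for any Ly49 gene. In NK-gated cells rich in granzymes D to G, 74.3% of BiDT and 78.7% of Ctrl cells had no Ly49 UMI, against 49.2% of BiDT and 67.0% of Ctrl members.

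Several receptors of the NKG2 and checkpoint groups were lower in BiDT. Klrc1, which encodes the inhibitory NKG2A, had 239 CPM in BiDT and 389 CPM in Ctrl members (-0.70), while its partner Klrd1 had 669 CPM in BiDT and 780 CPM in Ctrl members (-0.22). Klrb1b, an inhibitory receptor for the lectin Clr-b, had 306 CPM in BiDT and 508 CPM in Ctrl members (-0.73). Pdcd1, the gene of PD-1, had 54.3 CPM in BiDT and 113 CPM in Ctrl members, a log2 ratio of -1.05 (-1.33 to -0.78), which stood at -0.18 with all cells thinned before the gate. The opposing nectin receptors Cd226 and Cd96 were both lower, Cd226 at 52.3 CPM in BiDT and 117 CPM in Ctrl members (-1.16) and Cd96 at 38.3 CPM in BiDT and 66.6 CPM in Ctrl members (-0.80). Tigit, the third receptor of that group, had 52.5 CPM in BiDT and 36.5 CPM in Ctrl members (0.52), below the fold. Lag3, another checkpoint receptor, was higher, at 119 CPM in BiDT and 70.8 CPM in Ctrl members (0.74, and 0.47 with the gated cells thinned). Havcr2, which encodes TIM3, had 28.4 CPM in BiDT and 27.4 CPM in Ctrl members, a log2 ratio of 0.05 (-0.43 to 0.55).

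Of the activating receptors, Klrk1, the gene of NKG2D, had 393 CPM in BiDT and 423 CPM in Ctrl members (-0.10). Cd160 (-0.96) and Klrb1a (-0.77) were lower. Of the signalling adaptors, Cd247, the CD3 zeta chain, had 62.2 CPM in BiDT and 36.0 CPM in Ctrl members (0.79, and 0.39 with the gated cells thinned). Tyrobp, the adaptor of activating Ly49 receptors, had 617 CPM in BiDT and 907 CPM in Ctrl members (-0.56) and Fcer1g 1020 CPM in BiDT and 1303 CPM in Ctrl members (-0.35), both within the fold. Sh2d1a, the gene of the adaptor SAP, had 72.0 CPM in BiDT and 42.9 CPM in Ctrl members (0.75). It was below the fold with the gated cells thinned (0.20) and in class II-poor members (0.57). The related Sh2d1b2 rested on 112 UMIs in BiDT and 2 UMIs in Ctrl, a log2 ratio of 4.53 with an interval from 2.64 to 7.59. Its near copy Sh2d1b1 had 44.3 CPM in BiDT and 42.4 CPM in Ctrl members (0.06), and reads may have been split between the copies. In cells rich in granzymes D to G, Sh2d1b2 had 31.2 CPM in BiDT and 23 CPM in Ctrl.

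Cytotoxic genes were split, with granzymes A and B and perforin higher in BiDT. Of 25 measured genes 4 were higher and 2 lower, with a median of 0.05, and in class II-poor members 2 were higher and 4 lower. Over all genes 11.8% were higher and 7.66% lower, so the count of the list lies near that of all genes. Gzmb, the granzyme that starts caspase-dependent death, had 3173 CPM in BiDT and 886 CPM in Ctrl members, a log2 ratio of 1.84 (1.77 to 1.91). Gzma, the tryptase among the granzymes, had 4401 CPM in BiDT and 1871 CPM in Ctrl members (1.23, 1.18 to 1.29). Prf1, the pore-forming perforin, had 1168 CPM in BiDT and 727 CPM in Ctrl members (0.68, 0.60 to 0.77). In class II-poor members the ratios of Gzmb and Gzma were 1.69 and 1.10, and that of Prf1 was 0.54, below the fold. When all cells were thinned to 1000 UMIs before the gate was applied, which kept 670 BiDT and 213 Ctrl cells, the ratio of Gzmb was 1.72 and that of Gzma 0.47, below the fold.

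The granule machinery beside these effectors differed less. Nkg7, a granule membrane gene, had 1318 CPM in BiDT and 1270 CPM in Ctrl members (0.05), and Lamp1, Rab27a, Unc13d and Stx11, which serve granule release, had ratios between 0.02 and 0.25. Gzmc, which lies in the same cluster as granzymes D to G and was not part of the gate, was among the most abundant cytotoxic transcripts, with 4950 CPM in BiDT and 7152 CPM in Ctrl members (-0.53). Gzmk had 3.77 CPM in BiDT and 17.7 CPM in Ctrl members (-2.23). Of the death ligands, Tnfsf10, the gene of TRAIL, had 44.5 CPM in BiDT and 91.2 CPM in Ctrl members (-1.04), and Fasl 119 CPM in BiDT and 83.2 CPM in Ctrl members (0.51).

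**Figure D3:**
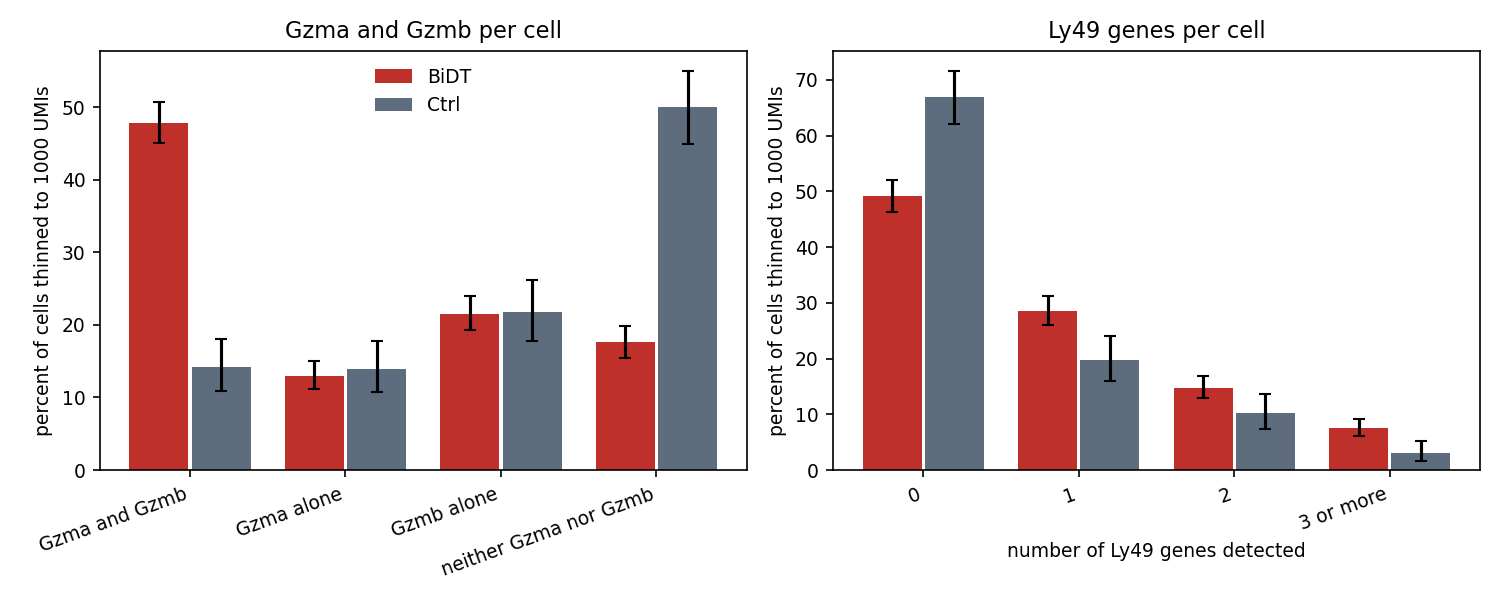
Percent of NK cells poor in granzymes D to G, each thinned to 1000 UMIs, that had a UMI of Gzma, Gzmb, both or neither (left) and a given number of Ly49 genes (right), with BiDT left of Ctrl; bars start at 0 and error bars are exact binomial 95% intervals over 1203 BiDT and 394 Ctrl cells. Both granzymes were seen in 47.9% of BiDT and 14.2% of Ctrl cells, and neither in 212 of 1203 BiDT and 197 of 394 Ctrl cells.

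Cell by cell, the libraries differed in the shares of cells in which Gzma and Gzmb were both seen and in which neither was seen. Whether a UMI is seen also depends on the level in the cell. The parts of level and of the number of cells that carry these transcripts were not tested. After thinning, Gzma and Gzmb were seen together in 47.9% of BiDT members (45.02% to 50.75%) and 14.2% of Ctrl members (10.9% to 18.1%). Neither was seen in 212 of 1203 BiDT members (15.5% to 19.9%) and 197 of 394 Ctrl members (44.95% to 55.05%). Cells with Gzma alone made up 13.0% of BiDT and 14.0% of Ctrl members, and cells with Gzmb alone 21.5% of BiDT and 21.8% of Ctrl members, so both libraries had like shares of cells with a single one of them. Gzma was also seen in 10.1% of BiDT and 10.5% of Ctrl CD8 T cells. In phagocytes, which do not make it, Gzma was seen in 2.97% of BiDT and 0.467% of Ctrl cells and Gzmb in 8.13% of BiDT and 0.716% of Ctrl cells, at median depths of 4870 UMIs in BiDT and 6877 UMIs in Ctrl before thinning.

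Secreted factors went in both directions. Of 25 measured cytokine and chemokine genes 8 were higher and 8 lower in BiDT, with a median of -0.03. Among all genes 11.8% were higher and 7.66% lower. Ccl4, a chemokine that draws leukocytes, had 1056 CPM in BiDT and 379 CPM in Ctrl members, a log2 ratio of 1.48 (1.36 to 1.59). Ifng, the gene of interferon gamma, had 190 CPM in BiDT and 115 CPM in Ctrl members (0.72, 0.50 to 0.94), and Tnf had 98.3 CPM in BiDT and 64.9 CPM in Ctrl members (0.60). Ifng was at 0.52 in class II-poor members and at 0.15 with all cells thinned before the gate, and Tnf at 0.35 in the same setting, all below the fold. Osm (0.70), Spp1 (1.17), Cxcl10 (0.98), Ccl3 (1.13) and Ccl2 (1.72) were higher too.

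Some of these levels lie in a range that RNA from other cells could reach. Ccl3 was below 10% of the level of another cell group in both libraries, as were 5 other genes of the list. Ccl2 stood at 253 CPM in BiDT and 76.8 CPM in Ctrl members, against 1938 CPM in BiDT and 965 CPM in Ctrl phagocytes. C1qa, a complement gene of phagocytes, stood at 148 CPM in BiDT and 118 CPM in Ctrl members, against 1598 CPM in BiDT and 1367 CPM in Ctrl phagocytes. Of the 14 phagocyte markers listed, 13 reached 50 UMIs, with 3 higher and 2 lower, and their summed level was 1467 CPM in BiDT and 1704 CPM in Ctrl members. In class II-poor members 6 of these markers were higher and 1 lower, with a median of 0.46. Over all genes 11.8% were higher and 7.66% lower in members, and 11.8% and 6.79% in class II-poor members. Of the 13 markers, 6 were below 10% of the level of another cell group in both libraries. The part of such RNA in these results was not tested.

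Several factors made by lymphoid cells were lower in BiDT. Xcl1, the chemokine by which NK cells draw conventional dendritic cells, had 287 CPM in BiDT and 750 CPM in Ctrl members, a log2 ratio of -1.39 (-1.50 to -1.27). It was seen in 15.3% of BiDT and 32.7% of Ctrl members after thinning, and in 0.495% of BiDT and 0.199% of Ctrl phagocytes. Ccl5 had 272 CPM in BiDT and 511 CPM in Ctrl members (-0.91, and -2.15 with all cells thinned before the gate; its direction turned in cells without a Ly49 UMI), and the lymphotoxin genes Ltb and Lta had 182 and 12.8 CPM in BiDT and 362 and 34.3 CPM in Ctrl members (-0.99 and -1.42). Tnfsf11, the gene of RANKL, had 9.52 CPM in BiDT and 35.4 CPM in Ctrl members (-1.89). Csf2 (-1.61), Areg (-0.92) and Ccl22 (-3.60) were in the range of RNA from other cells, and Ccl22 had a ratio of 0.35 in class II-poor members. Flt3l, a growth factor for dendritic cells, was alike in both libraries, with 63.4 CPM in BiDT and 64.9 CPM in Ctrl members (-0.04).

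The type I interferon response covered nearly the whole list. Of 50 measured genes 47 were higher and 1 lower in BiDT members, with a median log2 ratio of 2.02. Isg15, a ubiquitin-like modifier, had 544 CPM in BiDT and 98.2 CPM in Ctrl members (2.47, 2.25 to 2.69), and Bst2, which encodes the virus-tethering protein tetherin, had 610 CPM in BiDT and 156 CPM in Ctrl members (1.97). Irf7, a factor that amplifies the response, had 298 CPM in BiDT and 39.7 CPM in Ctrl members (2.91). The exceptions were Samhd1 (0.26) and Lgals3bp (-0.12), which stayed within the fold, and Ifitm3 (-0.59), which had a ratio of 0.48 in class II-poor members. Among class II-poor members 48 genes were higher and none lower, with a median of 2.28. The same list had a median of 2.17 in cells rich in granzymes D to G, where 15.7% of 9409 genes were higher and 4.73% lower, and 2.84 in CD8 T cells.

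Transcripts of the list were counted cell by cell. After thinning, the list had a median of 6 UMIs per 1000 in BiDT and 2 UMIs per 1000 in Ctrl members. Of BiDT members 39.2% (36.4% to 42.0%) exceeded the 95th percentile of Ctrl members, against 5.08% (3.13% to 7.73%) of Ctrl members themselves. No UMI of the list was seen in 1.41% of BiDT and 19.3% of Ctrl members. The same share above the Ctrl percentile of their own class was 46.1% in BiDT cells rich in granzymes D to G and 78.9% in BiDT CD8 T cells. In BiDT all 3 cell groups counted, these members, the granzyme-rich cells and CD8 T cells, had such transcripts in nearly every cell, so none gives a background share, and the part of RNA from other cells was not tested. The distributions of the NK cells overlapped, as the histogram of interferon transcripts per cell shows.

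**Figure D4:**
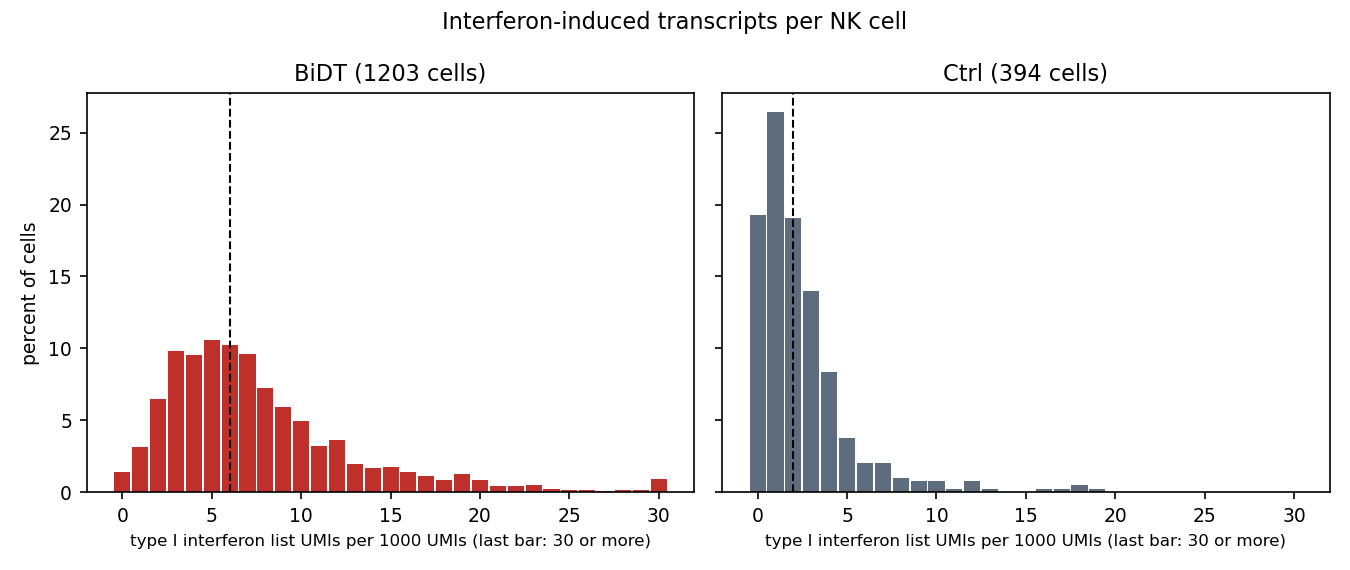
Percent of NK cells poor in granzymes D to G by their number of UMIs from the type I interferon list, after thinning each cell to 1000 UMIs, in BiDT (left) and Ctrl (right); the dashed line is the median. The median was 6 UMIs in BiDT and 2 UMIs in Ctrl, and the distributions overlap.

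The promoters of the leading genes are shown because members of this response share a known control element, the interferon-stimulated response element, whose core reads GAAANNGAAA. The core was sought on both strands from 250 bases before to 50 bases after each annotated start in RefSeq (GRCm38.p6, a build other than the GRCm39 named in the submitters' processing notes). It was found in 6 of the 11 highest named genes that had an entry, in 22 of 41 matched genes of the type I interferon list (53.7%) and in 3.99% of the 27025 genes with an entry. None of the 13 matched genes of the mature stage and none of the 14 matched genes of ILC1 and tissue residence held it. With 3.99% over all genes, lists this small often hold none, so the absence says little about them. The 250 bases before the start are printed 5′ to 3′ on the strand of the gene, with the core or its reverse complement in capitals, for 3 interferon-induced genes and for Gzma and Gzmb, the granzymes that were called higher.
Rsad2: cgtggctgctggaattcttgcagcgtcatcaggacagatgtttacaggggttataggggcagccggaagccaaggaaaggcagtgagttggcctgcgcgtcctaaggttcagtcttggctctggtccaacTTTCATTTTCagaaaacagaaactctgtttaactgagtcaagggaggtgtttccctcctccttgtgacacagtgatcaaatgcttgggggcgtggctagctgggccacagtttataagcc
Ifit1: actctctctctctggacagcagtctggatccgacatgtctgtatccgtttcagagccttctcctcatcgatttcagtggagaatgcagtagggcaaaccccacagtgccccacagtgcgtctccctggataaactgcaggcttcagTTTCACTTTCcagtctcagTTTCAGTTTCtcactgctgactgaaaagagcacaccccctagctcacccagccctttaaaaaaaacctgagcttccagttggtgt
Isg15: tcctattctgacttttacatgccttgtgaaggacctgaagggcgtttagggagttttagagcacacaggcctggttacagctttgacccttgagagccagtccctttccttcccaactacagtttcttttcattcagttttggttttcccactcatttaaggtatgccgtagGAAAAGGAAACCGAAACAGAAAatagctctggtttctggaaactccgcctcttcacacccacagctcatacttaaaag
Gzma: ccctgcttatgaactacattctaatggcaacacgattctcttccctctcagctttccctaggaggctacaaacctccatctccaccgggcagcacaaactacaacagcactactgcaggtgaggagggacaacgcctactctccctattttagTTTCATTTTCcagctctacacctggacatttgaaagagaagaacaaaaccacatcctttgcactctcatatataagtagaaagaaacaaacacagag
Gzmb: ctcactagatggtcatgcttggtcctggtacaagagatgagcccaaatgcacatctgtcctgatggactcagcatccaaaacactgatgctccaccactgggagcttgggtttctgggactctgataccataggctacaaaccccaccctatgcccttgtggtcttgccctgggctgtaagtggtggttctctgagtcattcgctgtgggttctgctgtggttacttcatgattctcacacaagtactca
Rsad2 lies on the minus strand (chr12:26456453-26456702), Ifit1 on the plus strand (chr19:34640639-34640888), and Isg15 (chr4:156200819-156201068), Gzma (chr13:113100982-113101231) and Gzmb (chr14:56262335-56262584) on the minus strand. Isg15 held the core at 3 overlapping positions, Ifit1 at 2 and Rsad2 at 1. Gzma held it at 1 position and Gzmb at none, although Gzmb had the larger ratio of these granzymes. A match is a description of letters and not a bound site.

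The interferon gamma and MHC class I lists had smaller medians. Of 26 measured interferon gamma genes 15 were higher and 2 lower, with a median of 0.64, and the lower ones were Cxcl9 and the class II transactivator Ciita. The guanylate-binding protein gene Gbp9 had 76.6 CPM in BiDT and 28.4 CPM in Ctrl members (1.43), and Igtp, an immunity-related GTPase gene, had 82.2 CPM in BiDT and 30.6 CPM in Ctrl members (1.43). Of 23 MHC class I genes 7 were higher and none lower, with a median of 0.33. The class Ib gene H2-T22 had 379 CPM in BiDT and 138 CPM in Ctrl members (1.46) and the peptide transporter gene Tap1 345 CPM in BiDT and 186 CPM in Ctrl members (0.89), while the classical H2-K1 had 4871 CPM in BiDT and 3362 CPM in Ctrl members (0.53).

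Receptors and signal transducers for cytokines were mixed. Of 37 measured genes 7 were higher and 6 lower, with a median of -0.11, where 11.8% of all genes were higher and 7.66% lower. The receptors of type I interferon, Ifnar1 (-0.10) and Ifnar2 (-0.11), and Il2rb (0.03), which binds interleukins 2 and 15, stayed within the fold. Il10ra, the interleukin 10 receptor, had 207 CPM in BiDT and 67.6 CPM in Ctrl members, a log2 ratio of 1.61 (1.34 to 1.89), and Il12rb1, an interleukin 12 receptor chain, had 87.9 CPM in BiDT and 49.4 CPM in Ctrl members (0.83). Il27ra (-0.93) and Socs3 (-0.87), a feedback inhibitor of cytokine signals, were lower.

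Of 31 measured cell cycle genes 9 were higher and none lower, with a median of 0.31, and in class II-poor members 6 were higher, with a median of 0.20. Ube2c, a ubiquitin conjugase of mitotic exit, had 262 CPM in BiDT and 113 CPM in Ctrl members (1.21), and Cenpa, a centromeric histone, 196 CPM in BiDT and 101 CPM in Ctrl members (0.95). Mki67 had 342 CPM in BiDT and 269 CPM in Ctrl members (0.34). After thinning, a UMI of Mki67, Top2a or Cdk1 was seen in 27.6% of BiDT members (25.1% to 30.2%) and 20.3% of Ctrl members (16.4% to 24.6%). Of 27 metabolic genes 2 were higher and 3 lower, with a median of -0.17; Gapdh, a glycolytic enzyme, had 602 CPM in BiDT and 1186 CPM in Ctrl members (-0.98). Of 22 activation and exhaustion factors 7 were higher and 1 lower, with a median of 0.21, and of 20 survival genes 2 were higher and 5 lower, with a median of 0.11. In class II-poor members 5 of these factors were higher and none lower, and 2 of the survival genes were higher and 3 lower. Of 24 trafficking genes 2 were higher and 8 lower, with a median of -0.27, and the lower ones included Cxcr6, Itga1 and Itgae of the residence list. Of 22 stress genes none was higher and 1 was lower, with a median of -0.02. The shares over all genes, beside which these counts stand, were 11.8% higher and 7.66% lower.

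The members were also divided by whether a Gzma UMI was seen. This division was chosen after the values had been seen, and Gzma itself is given only as a description. After thinning, 732 of 1203 BiDT members (60.8%) and 111 of 394 Ctrl members (28.2%) had a Gzma UMI. A Ly49 UMI was seen in 66.0% of BiDT and 65.8% of Ctrl cells with Gzma, and in 27.2% of BiDT and 20.1% of Ctrl cells without it. Cells with Gzma thus had like shares of Ly49-positive cells in both libraries, and they made up a larger share of members in BiDT. In Ctrl the cells with Gzma had 320 CPM of Eomes and 49 CPM of Cd226, and the cells without it 72.5 CPM of Eomes and 137 CPM of Cd226. Pdcd1 showed the same arrangement, with 25.7 CPM in Ctrl cells with Gzma and 139 CPM in Ctrl cells without it.

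Within these divisions some differences between the libraries were smaller than over all members. In cells with Gzma, Eomes had 278 CPM in BiDT and 320 CPM in Ctrl, and Prf1 1532 CPM in BiDT and 1402 CPM in Ctrl, ratios of -0.20 and 0.13. Gzma differed between the libraries and chose these cells, so the cells on each side may differ in kind between the libraries. Klra4 and Klra8 were at -0.28 and -0.41 in cells with Gzma, where all members together gave 0.73 and 0.75. Pdcd1, Cd226, Itga1 and Klrc1 lay within the fold in cells without Gzma (-0.22, -0.35, -0.37 and -0.24) but past it in cells with Gzma (-1.05, -1.55, -0.80 and -0.65). For Pdcd1 and Cd226 the values in cells with Gzma rested on 34 and 46 UMIs in BiDT and 11 and 21 UMIs in Ctrl.

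Other genes differed in both divisions. Gzmb had 3812 CPM in BiDT and 1451 CPM in Ctrl cells with Gzma (1.39), and 2180 CPM in BiDT and 717 CPM in Ctrl cells without it (1.60). Isg15 (2.82 with Gzma, 2.54 without), Irf7 (2.97 and 2.92), Il10ra (1.45 and 1.46) and Ly6c2 (1.07 and 1.90) were higher in both. Xcl1 (-1.23 and -1.02), Cd7 (-1.19 and -1.20) and Tyrobp (-0.70 and -0.72) were lower in both. Ccl5 differed between the divisions: it had 378 CPM in BiDT and 1815 CPM in Ctrl cells with Gzma (-2.26, -2.40 to -2.13), and 107 CPM in BiDT and 122 CPM in Ctrl cells without it (-0.19, -0.50 to 0.11). Divided by Ly49 instead, Ccl5 had 358 CPM in BiDT and 1326 CPM in Ctrl members with a Ly49 UMI (-1.89), and 183 CPM in BiDT and 150 CPM in Ctrl members without one (0.29), where the direction turned. In class II-poor members without a Ly49 UMI it was past the fold, at 177 CPM in BiDT and 115 CPM in Ctrl (0.62, 0.32 to 0.93).

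**Figure D5:**
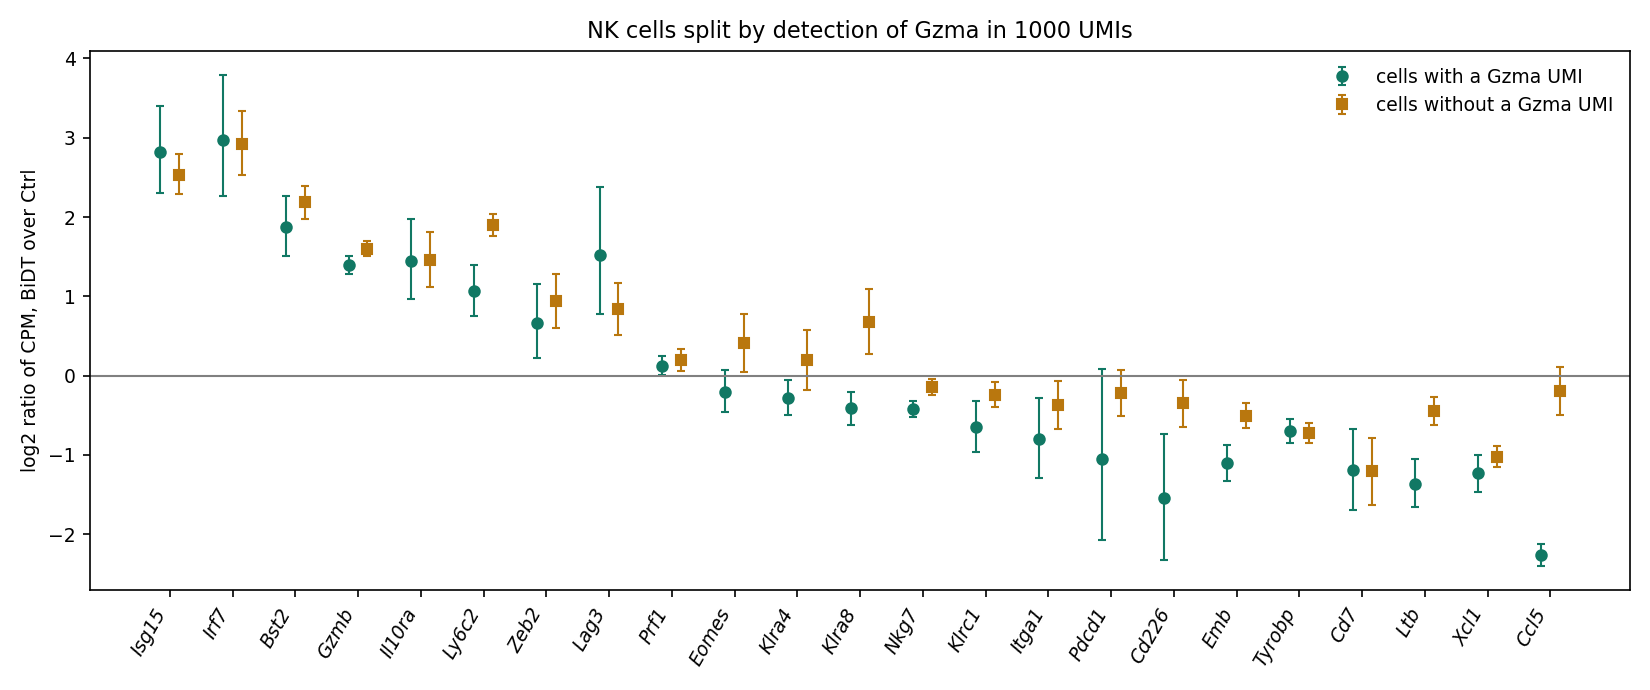
Log2 ratios of CPM, BiDT over Ctrl, of 23 genes in NK cells poor in granzymes D to G, with (circles) and without (squares) a Gzma UMI after thinning to 1000 UMIs; bars are exact conditional 95% intervals for counting error. Gzmb lies at 1.39 with and 1.60 without Gzma, Eomes at -0.20 with and 0.41 without, and Ccl5 at -2.26 with and -0.19 without.

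Some of these values differed between members of low and high depth. Members of unlike depth may also differ in kind, and the part of depth itself was not tested. In members under 2500 UMIs (435 in BiDT and 96 in Ctrl), Gzma had 4583 CPM in BiDT and 4651 CPM in Ctrl, a ratio of -0.02, while it was 1.17 at 2500 to 5000 UMIs and 1.66 at 5000 UMIs or more. In those shallow cells Ly6c2 (0.31), Zeb2 (0.40), Prf1 (0.28), Eomes (0.12), Klra1 (0.06), Lag3 (-0.14) and Klra8 (-0.45) were also within the fold, with the last 2 in the other direction, while Klra7 (1.51) and Pdcd1 (-1.02) were past it. Gzmb was higher at each depth, with ratios of 1.32, 1.84 and 2.07. Ccl4 had ratios of 0.36, 0.74 and 2.56, and Ifng of -0.23, 0.23 and 1.39, so Ccl4 was past the fold from 2500 UMIs and Ifng from 5000 UMIs. Ccl5 had ratios of -3.02, -1.01 and -0.02 in the same order. The ratio of Irf7 was between 2.40 and 3.30 at all 3 depths, and that of Xcl1 between -1.78 and -0.95.

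Compared with cells of the same gate that were rich in granzymes D to G (1041 in BiDT and 310 in Ctrl), the members had more Ccl5, Ly49 and Gzma transcripts. The number of granzyme UMIs chose both sets of cells, so the values are a description. In BiDT 868 of 9966 genes (8.71%) were at least 1.5-fold higher and 523 (5.25%) lower in members, and in Ctrl 1019 of 7678 genes (13.3%) were higher and 278 (3.62%) lower. Ccl5 had 272 CPM in members and 32.4 CPM in granzyme-rich cells of BiDT, and 511 CPM in members and 28.2 CPM in granzyme-rich cells of Ctrl. Klra4 had log2 ratios of members over granzyme-rich cells of 2.10 in BiDT and 1.89 in Ctrl, Klra8 of 1.94 and 1.67, Cxcr4 of 1.89 and 2.93, and Cd7 of 2.57 and 2.36. The other 5 of the 10 genes with the highest ratios are genes of dendritic or other myeloid cells, Retnla (1.92 in BiDT and 3.60 in Ctrl), Plet1 (2.43 and 3.04), Wdfy4 (1.12 and 3.77), Ccl17 (2.02 and 1.81) and Il1r2 (1.34 and 2.26), and their part in this comparison was not tested. Gzma had 4401 CPM in members and 1638 CPM in granzyme-rich cells of BiDT, and 1871 CPM in members and 1237 CPM in granzyme-rich cells of Ctrl.

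Genes that were lower in members than in granzyme-rich cells included Spp1, a secreted matrix phosphoprotein, with log2 ratios of -1.31 in BiDT and -1.90 in Ctrl. Mt1, a metallothionein, was at -2.53 in BiDT and -1.50 in Ctrl, and Cd55, a complement regulator, at -1.78 in BiDT and -3.59 in Ctrl. Tnfsf11 had 9.52 CPM in members and 38.2 CPM in granzyme-rich cells of BiDT, and 35.4 CPM in members and 94.9 CPM in granzyme-rich cells of Ctrl. Gzmc was more abundant in cells with more of the other clustered granzymes: in BiDT it had 4682 CPM in members with no UMI of granzymes D to G and 15101 CPM in cells with more than 20, and in Ctrl 6457 CPM and 16965 CPM. In BiDT Gzma ran the other way, with 4698 CPM in members with no such UMI and 1273 CPM in cells with more than 20. In Ctrl these levels were 2112 CPM and 1278 CPM, but Gzma did not fall throughout. Ctrl members with 1 and 2 such UMIs had 1124 CPM and 838 CPM, less than the cells with more than 20. Gzmb in BiDT had 3139 CPM in members with none and 3626 CPM in cells with more than 20, and in Ctrl 947 CPM and 1777 CPM.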

How the data were processed

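Single-cell transcriptomes were made with the 10x Genomics 3' workflow, per the labels' protocols, from live CD45+ cells sorted out of MC38 tumours, with 5 biological replicates pooled into each library; both libraries carry the same batch label. The deposited values are UMI counts per gene and cell barcode, not normalized, for 32589 genes. The submitters' processing notes name Cell Ranger 7.1.0 and GRCm39. The barcodes have 3 segments, unlike those of that tool, so how reads were counted is not certain.

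Counts were summed over the gated cells of each library and divided by their total (CPM). The log2 ratio of BiDT over Ctrl has an exact conditional (Clopper-Pearson) 95% interval that covers counting error only; with 1 library per group no test was made. Ratios over all members used genes with at least 50 UMIs over both libraries, and a call means at least 1.5-fold. Within members divided by Gzma, Ly49 or depth no such minimum was applied. Named were members of the gene lists, the 12 highest and 12 lowest ratios, and the 10 genes most different each way from the granzyme-rich cells. The last 2 kinds were taken among genes that reached 50 CPM in a library and whose interval excluded equality. Genes of the gate, mitochondrial, ribosomal, receptor segment, predicted and sex-linked genes were left out, as were genes in the range of RNA from other cells, meaning under 10% of another cell group's level in both libraries. For shares, cells were gated at full depth and each was then thinned to 1000 UMIs. No member was left out. Scrublet (scanpy 1.11.5) marked 2 BiDT and 0 Ctrl cells at its own thresholds and so did not work; at a score of at least 0.15, 9.39% of BiDT and 8.12% of Ctrl members were marked, and none were removed. The ratio code was tested on simulated data. Tools were edgeR 4.0.16 (TMM only) in R 4.3.3, and scipy 1.17.1, numpy 2.4.6, pandas 2.3.3 and matplotlib 3.10.9 in Python 3.11.15. Alternatives were other gates, thinning, other count minimums and other scalings. The members and gene lists were chosen with earlier results of these data known. Some items that these rules name are not reported here.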

Additional observations from a re-analysis of the deposited data

How the results depend on the processing

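The NK share, the type I interferon list and the lists of the mature and immature stages kept their direction under all gates, scalings and count minimums tried. The log2 ratio of shares lay between 1.17 and 1.69; it was 1.27 with a marker sum of at least 3 and 1.17 with no UMI of granzymes D to G. The median of the interferon list lay between 1.82 and 2.31, that of the mature stage between 0.32 and 0.64 and that of the immature stage between -0.60 and -0.24. The numbers of genes tested and called changed with the count minimum and with thinning: of 11864 genes with at least 10 UMIs 1999 were higher and 1368 lower, of 4917 with at least 200 UMIs 458 and 228, of 3109 with all cells thinned to 1000 UMIs before the gate 465 and 284, and of 4974 with the gated cells thinned 720 and 397. The median of activating receptors was -0.40 with all cells thinned before the gate and 0.10 with a marker sum of at least 1. That of cytokines was 0.38 with gated cells thinned and 0.55 in cells with no UMI of Trac, Cd4, the C1q genes or Cd79a. Of single genes, Klra4 stood at -0.41 and Ifitm3 at 0.82 with all cells thinned before the gate, and Ifitm3 at 0.48 in class II-poor members and 0.47 in those with Nkg7. The causes were not tested. Of 1779 values of 104 called genes under the alternatives, 1775 had the same sign and 1674 were still past the fold. Of the 104 genes, 36 fell below the fold under at least 1 alternative. Part of this agreement was fixed in advance. The count minimums left each single-gene ratio unchanged, and the scalings shifted every log2 ratio by only -0.018 to -0.003. Genes under the count minimum in an alternative were not counted there. The gates by class II genes, by Nkg7 and by shared barcodes were chosen after seeing the data. Each library is 1 pool, so the spread between animals is unknown, and depth and Malat1 differed between the libraries; their part in the results was not tested. No paired analysis was possible because each group has 1 library.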
